A study of Mus musculus with 4 samples.

Results

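Genes of cholesterol synthesis, its regulation, sterol transport and efflux were followed with and without TGFβ in Py2T, a line of mouse breast cancer cells that was established from a mammary tumour of an MMTV-PyMT transgenic mouse. The genes were taken by name and role from the pathway, with earlier results of these data known. The set lists 31 genes, 29 of which were measured among the 19938 genes tested, each through the brightest probe set that carries its symbol alone. Acat2 and Nr1h2 were not analysed here. The untreated group has 2 arrays of cells left without the cytokine. The TGFβ group has 2 arrays of cells kept in TGFβ at 2 ng/ml, for 5 days. All cells grew in DMEM with glutamine, penicillin, streptomycin and 10% FCS, whose lipoproteins supply sterol. The labels call the arrays of a group biological replicates of this single cell line and describe the control only as untreated. Whether the cultures were kept separately is not stated, so the p-values cover the spread among these arrays, which may be technical. Values are log2 RMA expression values, and an array's value for 1 gene is not compared with its value for another.

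Cholesterol is built from acetyl-CoA by way of mevalonate, isoprenoid diphosphates, squalene and lanosterol. When sterol is scarce, Scap carries the membrane-bound transcription factor SREBP2, encoded by Srebf2, out of the endoplasmic reticulum for cleavage, and the released factor induces nearly every enzyme of the route. When sterol is plentiful, Insig proteins hold Scap back, and oxysterols activate the liver X receptors (LXR), which induce the exporters Abca1 and Abcg1 and the ubiquitin ligase Mylip, which degrades lipoprotein receptors.

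After TGFβ, 10 of 18 measured synthesis enzymes fell at an adjusted p under 0.05 in limma's moderated two-sided test, 0 rose and 8 did not pass. Abcg1 and Npc1 rose. Over all genes tested, 7.15% were called lower, 6.49% higher and 13.6% in either direction. At an unadjusted p under 0.05, 16 synthesis enzymes were lower and 0 higher. The median log2 difference of the 18 enzymes was -0.70, a 1.63-fold lower level, against 0.01 over all genes. In 16 of the 18 both TGFβ arrays lay below both untreated arrays, an order seen in 25% of all genes. Of 5 regulators 3 fell (Srebf1, Srebf2 and Insig2), 0 rose (0 also at an unadjusted p under 0.05) and 2 did not pass, with a median of -0.45 (-0.30 without TGFβ replicate 1). Of 4 LXR and efflux genes 1 rose (Abcg1), 0 fell (0 also at an unadjusted p under 0.05) and 3 did not pass, with a median of 0.31. This median was 0.16 without untreated replicate 2 and 0.43 without untreated replicate 1. Both TGFβ arrays lay above both untreated arrays in 2 of these 4 genes, against 27.6% of all genes. Of the 2 intracellular transport genes, Npc1 rose and Stard4 fell. The arrays read RNA of whole cultures, so a lower value from fewer cells of a kind and from less RNA per cell cannot be told apart.

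**Figure D1:**
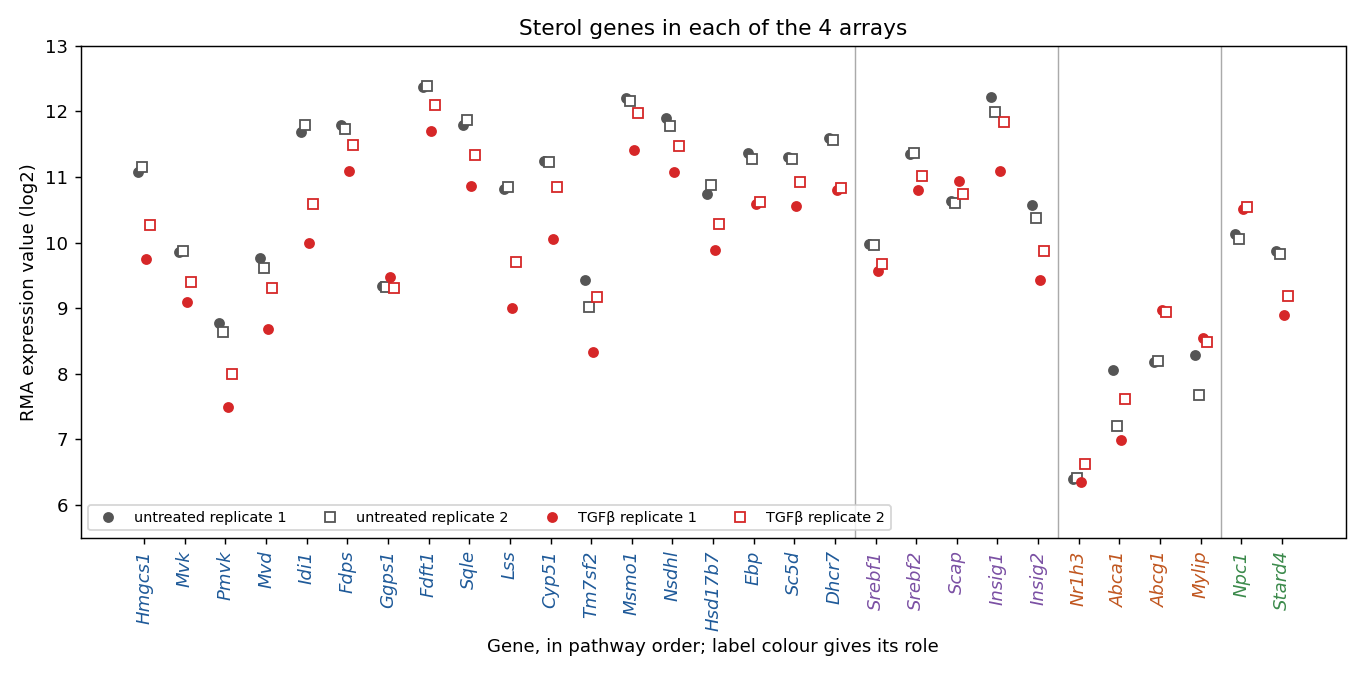
RMA expression value (log2, vertical axis) of each of the 29 measured genes in the 4 arrays, in pathway order, with circles for replicate 1 and squares for replicate 2. Untreated points (grey) lie close together for most enzymes, TGFβ points (red) lie below them in 16 of 18 enzymes, and the red circle is below the red square in 17 of 18.

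The promoters of these genes are shown because 10 of the 18 synthesis enzymes fell, and SREBP factors bind near gene starts beside the CCAAT-binding factor NF-Y and Sp1. RefSeq promoter windows of build GRCm38.p6, from 250 bases before to 50 after each gene start, were matched to 25 of the 31 genes by symbol, 16 of them synthesis enzymes. The 250 bases before the start are printed 5′ to 3′ on the gene's strand. They belong to Hmgcs1, the one with a match to the full sterol regulatory element searched, and to Idi1 and Lss, with the lowest differences. Also printed are Ggps1, an enzyme that was not called, and Srebf2, the factor itself. Capitals mark matches on either strand to the NF-Y box (CCAAT, read as ATTGG on the other strand) and to the sterol regulatory element (TCACNCCAC, or its shorter part CACNCCAC).
Hmgcs1, chr13:119690101-119690350, plus strand: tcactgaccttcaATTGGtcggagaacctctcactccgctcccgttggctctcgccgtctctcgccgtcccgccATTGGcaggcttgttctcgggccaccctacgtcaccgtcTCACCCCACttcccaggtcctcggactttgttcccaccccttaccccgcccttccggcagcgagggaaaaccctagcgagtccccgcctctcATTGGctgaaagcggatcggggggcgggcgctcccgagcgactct
Idi1, chr13:8885356-8885605, plus strand: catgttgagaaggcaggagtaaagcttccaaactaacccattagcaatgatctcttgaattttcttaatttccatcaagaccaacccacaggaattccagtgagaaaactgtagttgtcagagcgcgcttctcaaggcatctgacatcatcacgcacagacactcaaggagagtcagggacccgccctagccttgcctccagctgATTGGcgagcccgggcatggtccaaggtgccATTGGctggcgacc
Lss, chr10:76531355-76531604, plus strand: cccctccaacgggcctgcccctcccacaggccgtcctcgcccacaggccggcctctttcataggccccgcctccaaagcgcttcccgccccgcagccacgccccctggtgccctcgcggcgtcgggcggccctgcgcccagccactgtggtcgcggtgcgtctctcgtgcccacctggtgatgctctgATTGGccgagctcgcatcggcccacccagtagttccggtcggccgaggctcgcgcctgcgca
Ggps1, chr13:14063489-14063738, minus strand: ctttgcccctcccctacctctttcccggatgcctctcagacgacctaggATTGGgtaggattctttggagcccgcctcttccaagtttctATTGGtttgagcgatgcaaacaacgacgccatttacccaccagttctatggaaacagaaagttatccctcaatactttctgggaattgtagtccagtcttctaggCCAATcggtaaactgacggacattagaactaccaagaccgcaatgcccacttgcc
Srebf2, chr15:82147019-82147268, plus strand: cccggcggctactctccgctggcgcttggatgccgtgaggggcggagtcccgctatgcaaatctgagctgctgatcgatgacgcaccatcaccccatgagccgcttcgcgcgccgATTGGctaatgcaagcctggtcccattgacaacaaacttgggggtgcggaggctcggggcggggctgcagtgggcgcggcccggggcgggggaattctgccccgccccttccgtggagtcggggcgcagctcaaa

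An NF-Y box was present in 15 of the 16 synthesis enzymes with a window (93.8%), against 42.3% of the 17492 protein-coding genes in the table. Within 100 bases before a start it was present in 14 of the 16 (87.5%), against 23.9% of those genes. The Sp1 box GGGCGG was present in 14 of 16 (87.5%), against 49.2%. The element TCACNCCAC was found in 1 of 16 (6.25%), Hmgcs1, at positions -137 to -129 from its start, against 1.41%. The shorter CACNCCAC was found in 2 of 16 (12.5%), Hmgcs1 and Acat2, and in 1 of 5 regulators, Insig1, against 7.26%. It shares all its letters with the longer element, so the 2 are not separate matches in Hmgcs1. Other forms of the element were not searched, so a window without a match may still hold one. Among the 4 LXR and efflux genes with a window, 1 held an NF-Y box, Mylip. The LXR element was searched only as an exact direct repeat of AGGTCA spaced by 4 bases. It matched 0 of the 25 genes with a window and 0 of the 17492 protein-coding genes. Inexact repeats were not searched, so this search cannot tell whether these windows hold an LXR element. Genes with several annotated starts count once, with a match at any start. Of 20 measured genes with an NF-Y box 12 were called lower and 8 were not called, where 7.15% of all genes were called lower. Of the 3 without one (Scap, Nr1h3 and Abca1) 0 were called. Acat2, the synthesis enzyme without a box, was not analysed, so every measured synthesis enzyme with a window holds a box. The split by box therefore overlaps largely with the gene lists, though Scap is a regulator without a box and Mylip an LXR and efflux gene with one. What the box adds beyond the lists was not tested. Ggps1 holds 3 such boxes and was not called. A match of letters is a description of these windows and does not show binding.

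**Figure D2:**
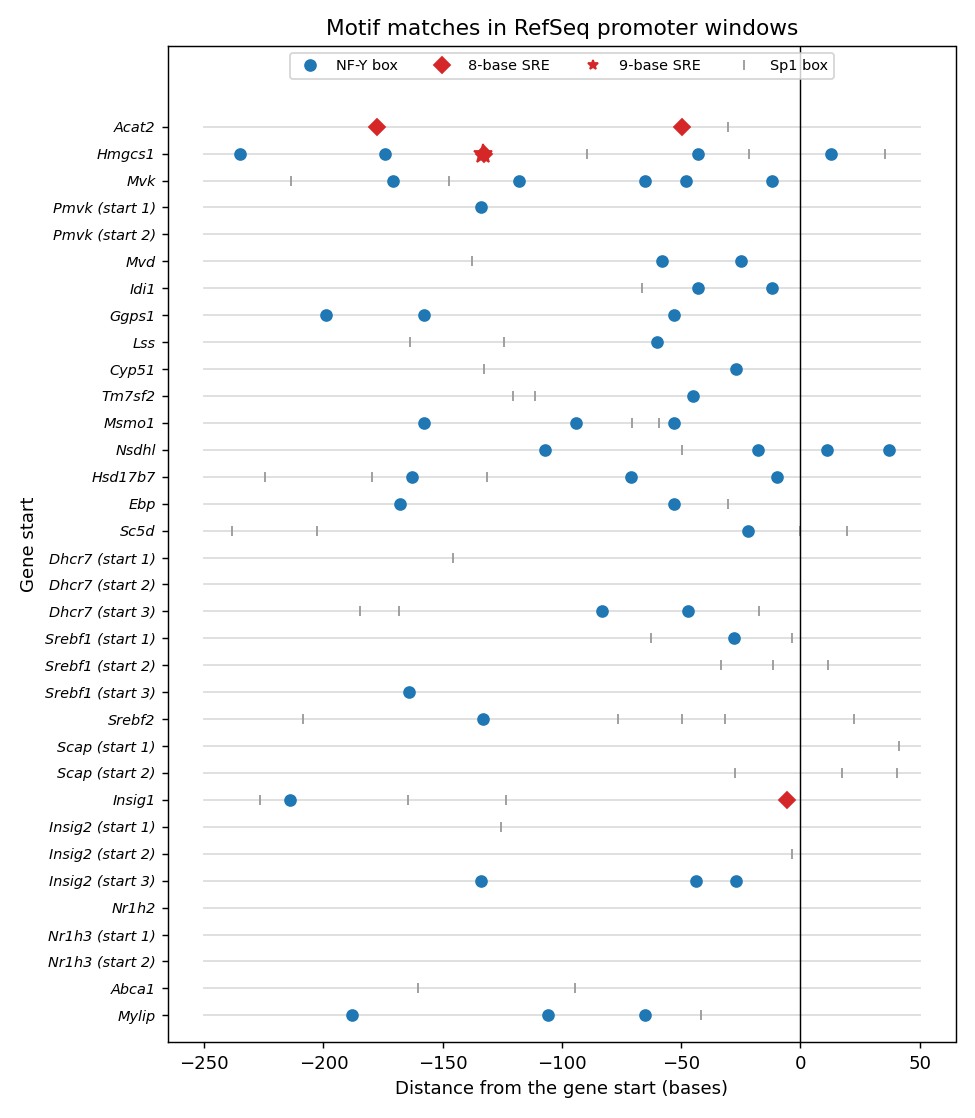
Position of motif matches in each RefSeq promoter window, as distance from the gene start in bases (horizontal axis), with 1 row per annotated start. Blue circles (NF-Y boxes) crowd within 100 bases before the start in the synthesis genes. Red marks (matches to the sterol regulatory element) appear in Acat2, Hmgcs1 and Insig1, and grey ticks are Sp1 boxes. No mark lies in any window of Nr1h2 and Nr1h3, in 1 window of Pmvk or in 1 of Dhcr7.

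The early steps, from acetyl-CoA to the activated isoprene unit, included 3 enzymes with differences near or beyond 1 on the log2 scale. Hmgcs1, which condenses acetyl-CoA units into HMG-CoA, was at 11.08 and 11.15 in the untreated arrays and at 9.75 and 10.28 in the TGFβ arrays. Its groups did not overlap, and it fell 2.15-fold, a log2 difference of -1.10 ± 0.17 (SE, n = 2 per group, limma adjusted p = 0.012). Idi1, which interconverts the activated isoprene units, was at 11.69 and 11.80 untreated and at 9.99 and 10.58 after TGFβ. It fell 2.74-fold (-1.45 ± 0.19, adjusted p = 0.0073), and its second probe set gave the same difference of -1.45. The calls of Hmgcs1 and Idi1 held without any single array, and their differences stayed between -1.36 and -0.84 and between -1.75 and -1.16. Pmvk, the second kinase of the mevalonate route, was at 8.77 and 8.64 untreated and at 7.49 and 7.99 after TGFβ. It fell by 0.96 ± 0.17 on the log2 scale (adjusted p = 0.018), and missed the threshold when untreated replicate 1 was dropped (-0.90).

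Mvk, the kinase that first phosphorylates mevalonate, was at 9.85 and 9.88 in untreated cells and at 9.09 and 9.39 after TGFβ. It fell by 0.62 ± 0.11 (adjusted p = 0.021) and missed the threshold when untreated replicate 1 or 2 was dropped (adjusted p of 0.074 and 0.076). Mvd, the decarboxylase that follows, was at 9.77 and 9.62 untreated and at 8.68 and 9.31 after TGFβ. Its groups did not overlap, but the wider spread after TGFβ (SD 0.45, against 0.11 untreated) left its difference of -0.69 uncalled (95% interval -1.20 to -0.19, adjusted p = 0.086). Without TGFβ replicate 2 it passed at -1.01 (adjusted p = 0.0059), and without TGFβ replicate 1 it was -0.38 (adjusted p = 0.11).

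At the branch point after the isoprene units none of the 3 enzymes was called. Fdps, which makes farnesyl diphosphate, was at 11.79 and 11.73 untreated and at 11.10 and 11.48 after TGFβ, a difference of -0.47 that was not called (adjusted p = 0.080). Ggps1, which extends that product to geranylgeranyl diphosphate for protein prenylation and so leaves the sterol route, was at 9.33 and 9.32 untreated and at 9.47 and 9.31 after TGFβ. Its arrays overlapped and its difference was 0.06 (95% interval -0.15 to 0.28), the only one of the 18 enzymes above 0. Without TGFβ replicate 1 the Ggps1 difference was -0.020. Fdft1, squalene synthase and the first step committed to sterols, was at 12.37 and 12.39 untreated and at 11.70 and 12.10 after TGFβ. Its difference of -0.48 was not called (adjusted p = 0.081), and its second probe set gave -0.45. Fdps and Fdft1 both passed without TGFβ replicate 2, at -0.66 (adjusted p = 0.014) and -0.68 (adjusted p = 0.012). Without TGFβ replicate 1 both differences shrank to -0.28 (adjusted p of 0.17 and 0.15). Both also passed where the prior variance followed intensity and was fitted robustly, at adjusted p = 0.040 and 0.045.

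From squalene to lanosterol both enzymes fell. Sqle, the epoxidase that is a controlled step of the late route, was at 11.79 and 11.87 untreated and at 10.87 and 11.34 after TGFβ. It fell by 0.73 ± 0.16 (adjusted p = 0.034), but dropping untreated replicate 1 or 2 took the adjusted p to 0.089 or 0.11. Lss, the cyclase that closes the sterol rings, was at 10.82 and 10.85 untreated and at 8.999 and 9.71 after TGFβ. This was the lowest difference of the 29 genes, a 2.80-fold fall (-1.48 ± 0.22, adjusted p = 0.011), and 0.858% of all genes ranked at or below it. Without 1 array at a time it ranged from -1.84 to -1.13 and was called each time.

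The late steps, which turn lanosterol into cholesterol, had differences below 0 in all 8 enzymes measured, 4 of which were called. Dhcr7, which carries out a final double-bond reduction, was at 11.59 and 11.57 untreated and at 10.80 and 10.84 after TGFβ. Ebp, the sterol isomerase, was at 11.37 and 11.28 untreated and at 10.59 and 10.63 after TGFβ. In both genes the TGFβ arrays differed by 0.04, and the falls of 0.76 ± 0.07 (adjusted p = 0.0025) and 0.72 ± 0.08 (adjusted p = 0.0036) were called without any single array. Hsd17b7, a sterol ketone reductase, was at 10.75 and 10.88 untreated and at 9.88 and 10.29 after TGFβ. It fell by 0.73 (adjusted p = 0.026), a call that ended when untreated replicate 1 (-0.80) or 2 (-0.66) was dropped. Sc5d, a sterol desaturase, was at 11.31 and 11.27 untreated and at 10.56 and 10.93 after TGFβ. It fell by 0.54 (adjusted p = 0.047), close to the threshold. Dropping untreated replicate 1 (-0.53), untreated replicate 2 (-0.56) or TGFβ replicate 1 (-0.36) took the adjusted p to 0.16, 0.12 and 0.086. Cyclic loess and repeated quantile normalization took it to 0.067 and 0.052.

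The other 4 late enzymes were not called, and all 4 passed without TGFβ replicate 2 but not without any other array. Cyp51, the lanosterol demethylase, was at 11.25 and 11.23 untreated and at 10.05 and 10.86 after TGFβ (-0.79, adjusted p = 0.10). Nsdhl, a sterol decarboxylating dehydrogenase, was at 11.89 and 11.77 untreated and at 11.08 and 11.47 after TGFβ (-0.56, adjusted p = 0.054). It also passed without the dimmest 25% of genes (adjusted p = 0.042) and with the robust, intensity-dependent prior variance (adjusted p = 0.026). Msmo1, the sterol methyl oxidase, was at 12.20 and 12.17 untreated and at 11.41 and 11.98 after TGFβ (-0.49, adjusted p = 0.15). In these 3 genes the TGFβ arrays lay below the untreated arrays and far apart from each other. Tm7sf2, a sterol reductase, was at 9.43 and 9.02 untreated and at 8.33 and 9.17 after TGFβ, so that its groups overlapped (-0.48, 95% interval -1.17 to 0.22). Without TGFβ replicate 2 the differences were -1.19 for Cyp51 (adjusted p = 0.0022), -0.76 for Nsdhl (adjusted p = 0.012), -0.77 for Msmo1 (adjusted p = 0.0085) and -0.89 for Tm7sf2 (adjusted p = 0.039). Without TGFβ replicate 1 they were -0.39, -0.36, -0.21 and -0.06 in the same order (adjusted p of 0.071, 0.11, 0.28 and 0.92).

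**Figure D3:**
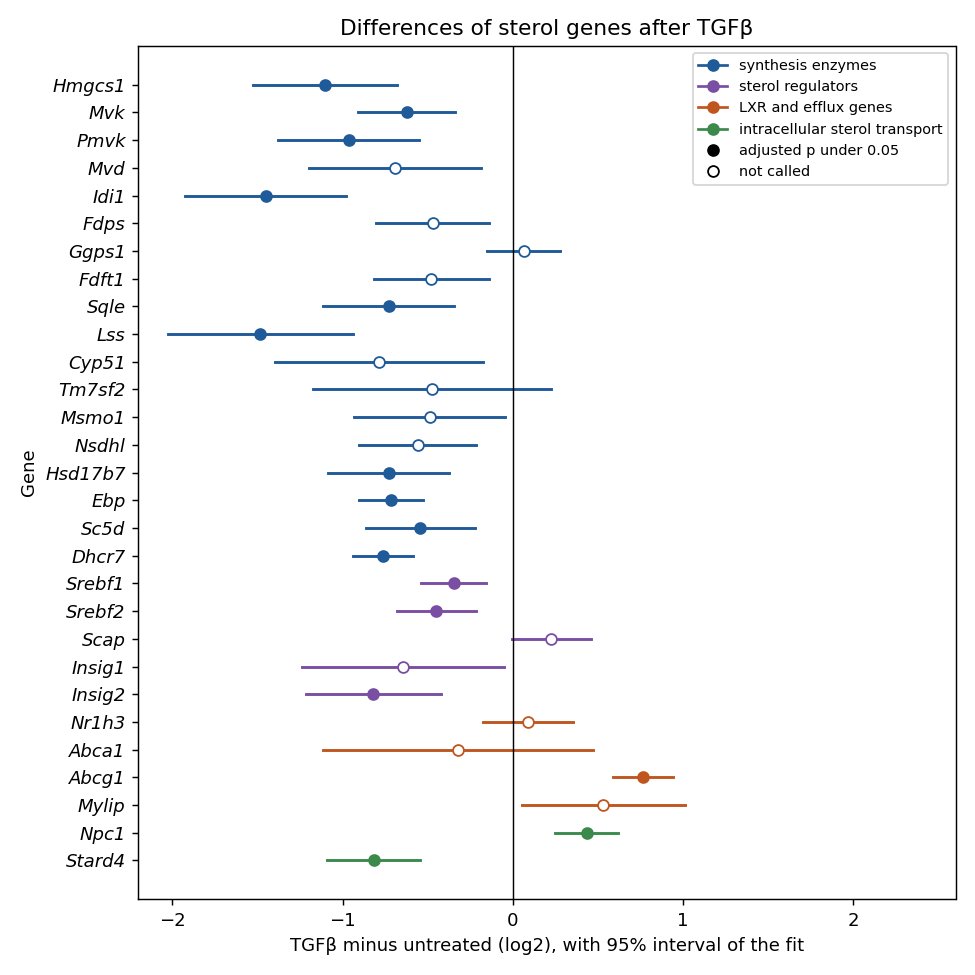
Log2 difference (TGFβ minus untreated, horizontal axis) of each measured gene, with the 95% interval of the fit, which is not adjusted for the number of genes. Filled points are called at an adjusted p under 0.05 and open points are not; 17 of 18 synthesis enzymes lie left of 0, and Abcg1 and Npc1 are the filled points right of it.

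Of the regulators, both SREBP genes and Insig2 fell. A probe set that lists Srebf2 among several gene symbols gave a difference of 0.27. It was not used, since its signal cannot be assigned to 1 gene. By the probe set with its symbol alone, Srebf2 was at 11.36 and 11.37 in untreated cells and at 10.81 and 11.02 after TGFβ. It fell 1.37-fold (-0.45 ± 0.09, adjusted p = 0.031), a call that ended when untreated replicate 1 or 2 was dropped (adjusted p = 0.12 each time). It also ended when TGFβ replicate 1 was dropped (-0.35, adjusted p = 0.092). Srebf1, whose products act on fatty acid as well as sterol genes, was at 9.98 and 9.96 untreated and at 9.57 and 9.67 after TGFβ. It fell 1.27-fold (-0.35, adjusted p = 0.038). Dropping any of the 4 arrays ended its call, at adjusted p from 0.056 (TGFβ replicate 2) and 0.13 (TGFβ replicate 1) to 0.14 and 0.17 (untreated replicates 2 and 1). So did repeated quantile normalization (adjusted p = 0.056), cyclic loess (adjusted p = 0.054) and the robust, intensity-dependent prior variance (adjusted p = 0.053).

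Of the Insig proteins, which retain Scap, Insig2 was at 10.58 and 10.37 untreated and at 9.43 and 9.87 after TGFβ. It fell 1.77-fold (-0.82 ± 0.16, adjusted p = 0.026), a call that ended when untreated replicate 1 was dropped (-0.72, adjusted p = 0.099). Insig1, itself a target of SREBP factors, was at 12.22 and 11.99 untreated and at 11.09 and 11.83 after TGFβ. The TGFβ arrays lay 0.75 apart, and its difference of -0.64 was not called (adjusted p = 0.16) but passed without TGFβ replicate 2 (-1.02, adjusted p = 0.0096). Without TGFβ replicate 1 it was -0.27 (adjusted p = 0.31). Scap, the escort itself, was at 10.63 and 10.60 untreated and at 10.95 and 10.74 after TGFβ. Its groups did not overlap and its difference of 0.23 was not called (95% interval -0.004 to 0.46, adjusted p = 0.20).

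Among the LXR and efflux genes, Abcg1, which exports cholesterol to lipoprotein particles, was at 8.18 and 8.19 in untreated cells and at 8.97 and 8.93 after TGFβ. It rose 1.70-fold (0.76 ± 0.07, adjusted p = 0.0024), and the rise was called without any single array. Mylip was at 8.29 and 7.68 untreated and at 8.54 and 8.48 after TGFβ. Its untreated arrays lay 0.61 apart, and its difference of 0.53 was not called (adjusted p = 0.15) but passed without untreated replicate 1 (0.84, adjusted p = 0.011). Without untreated replicate 2 it was 0.23 (adjusted p = 0.33). Abca1, the exporter to lipid-poor apolipoprotein, was at 8.05 and 7.20 untreated and at 6.99 and 7.62 after TGFβ. The groups overlapped, and the difference of -0.32 had a 95% interval of -1.12 to 0.47. It was 0.11 without untreated replicate 1, so these arrays give it no direction. Nr1h3, which encodes LXRα, was at 6.40 and 6.41 untreated and at 6.35 and 6.63 after TGFβ, below the array medians of 6.74 to 6.76 over all probe sets. Its difference was 0.09 (95% interval -0.18 to 0.35) and was -0.050 without TGFβ replicate 2.

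Stard4, which carries cholesterol between membranes in the cytosol and is a target of SREBP2, was at 9.88 and 9.83 untreated and at 8.89 and 9.18 after TGFβ. It fell 1.76-fold (-0.82 ± 0.11, adjusted p = 0.0079), and the fall was called without any single array. Npc1, which moves cholesterol out of late endosomes and lysosomes, was at 10.14 and 10.06 untreated and at 10.52 and 10.54 after TGFβ. It rose 1.35-fold (0.43 ± 0.07, adjusted p = 0.017). Dropping any of the 4 arrays ended this call, at adjusted p of 0.055 for either TGFβ replicate and of 0.061 and 0.093 for untreated replicates 1 and 2, while the difference stayed between 0.39 and 0.47.

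The TGFβ arrays were not equal for the synthesis genes. TGFβ replicate 1 was below TGFβ replicate 2 in 17 of 18 enzymes, all but Ggps1, and in 25 of the 29 genes. Over all genes this held for 49.1%, and among the 1426 genes called lower for 57.7%. Among the 1294 genes called higher, TGFβ replicate 1 was above TGFβ replicate 2 in 69.6%. Replicate 1 was thus more often the array further from untreated among called genes of both directions, not only in sterol genes. The median gap of the enzymes, replicate 1 minus replicate 2, was -0.44, against -0.04 for the genes called lower. A gap at or beyond this median, which 9 of the 18 enzymes reach by definition, was seen in 1.59% of all genes. It was seen in 6.52% of the genes called lower. The test passes genes with small gaps more readily, and 8 of the 18 enzymes were not called, so the called genes are an uneven comparison. The gap ran from -0.84 in Tm7sf2 to 0.17 in Ggps1, and was near 0 in Ebp and Dhcr7. The untreated arrays differed less, with a median gap of 0.07 regardless of sign and a largest one of 0.41, also in Tm7sf2.

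Set against the untreated mean, the 18 enzymes averaged -0.94 in TGFβ replicate 1 and -0.51 in TGFβ replicate 2. Lss was 3.57-fold lower in replicate 1 and 2.19-fold lower in replicate 2, and Cyp51 was 2.28-fold and 1.31-fold lower. The regulators averaged -0.54 and -0.28. The LXR and efflux genes averaged 0.16 and 0.37, with Abcg1 at 0.78 and 0.75, Mylip at 0.56 and 0.50, and Abca1 at -0.64 and -0.01. The LXR and efflux mean of TGFβ replicate 1 lay inside the spread of the untreated arrays, whose own means were 0.18 and -0.18, while those of the enzymes were 0.02 and -0.02. Npc1 was at 0.42 and 0.45. The gap between the TGFβ arrays was 0.04 or less in Abcg1, Npc1, Ebp and Dhcr7, and larger in Abca1 (-0.63) and Nr1h3 (-0.28). With TGFβ replicate 1 left out the median of the enzymes was -0.43, and with TGFβ replicate 2 left out it was -0.84. Without untreated replicate 1 or 2 their medians were -0.65 and -0.68.

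**Figure D4:**
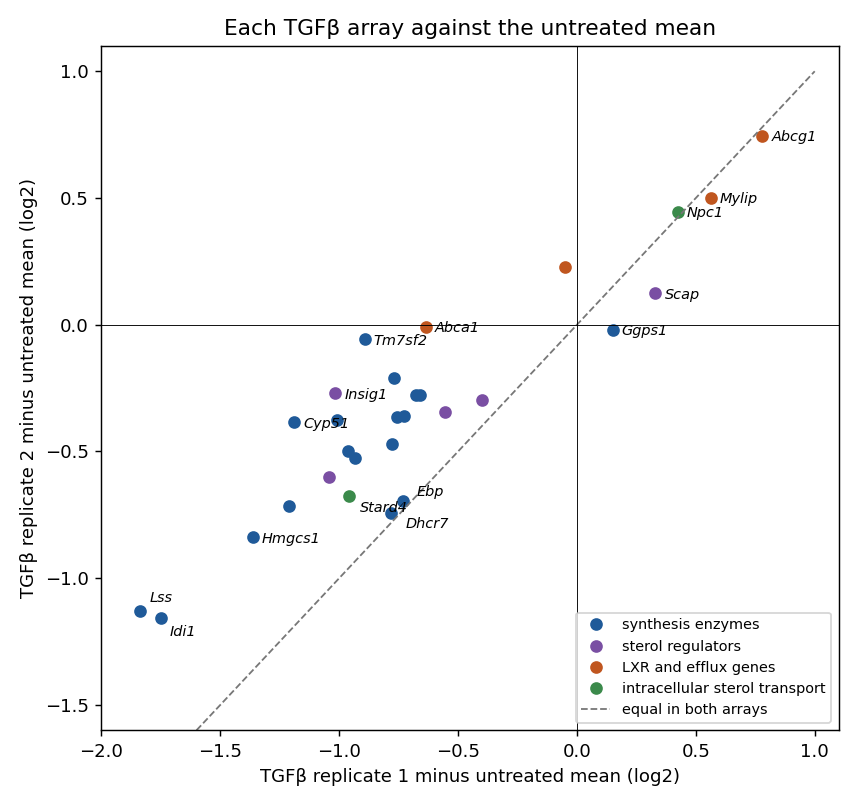
Each measured gene's value in TGFβ replicate 1 (horizontal axis) and TGFβ replicate 2 (vertical axis), both as log2 difference from the untreated mean. Most enzymes lie above the dashed line of equality, with lower values in replicate 1, while Ebp, Dhcr7, Abcg1, Mylip and Npc1 lie close to it.

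Among the marker genes, Cdh1 and Epcam had gaps of like size. The 5 epithelial markers (Epcam, Krt8, Krt18, Cdh1 and Krt7) lay between 9.97 and 13.61 in all arrays and averaged -0.62 in TGFβ replicate 1 and -0.40 in TGFβ replicate 2. Their gaps were -0.69 in Cdh1 and -0.46 in Epcam, against 0.07, -0.03 and -0.02 in Krt8, Krt18 and Krt7. Cdh1, E-cadherin, and Epcam fell, while the 3 keratins were not called and stayed at 13.20 or above in every array. Cdh1 was at 11.59 and 11.55 untreated and at 9.97 and 10.66 in TGFβ replicates 1 and 2. The TGFβ response genes Smad7, Skil and Nox4 were above both untreated arrays in each and averaged 1.64 and 1.52. Their gaps were 0.02 to 0.17, opposite in sign because these genes rose. Replicate 1 was the array further from the untreated mean in them, as it was in Cdh1 and Epcam. Markers of leukocytes (4 of 5 measured), endothelial cells (3 of 3) and adipocytes (2 of 2) had 0 called genes in limma and 0 at an unadjusted p under 0.05, with levels of 4.93 to 7.90, 5.15 to 6.34 and 5.09 to 6.98. The part of these genes, or of the culture behind each array, in the gap was not tested. Array medians lay within 6.74 to 6.76, and the number of arrays limits the precision.

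Further genes of sterol handling, in 6 lists taken by function, were called about as often as genes in general. Of their 38 measured genes 6 were called (15.8%), against 13.6% of all genes, so the single calls that follow are values and set none of these lists apart. Of 6 measured genes of SREBP processing and sterol-regulated turnover 1 rose, 0 fell and 5 did not pass, against 3 higher and 1 lower at an unadjusted p under 0.05. It was Syvn1, a ubiquitin ligase of the endoplasmic reticulum (0.36, adjusted p = 0.034). Dropping any of the 4 arrays ended its call, at adjusted p from 0.059 (TGFβ replicate 2) and 0.11 (untreated replicate 1) to 0.12 (TGFβ replicate 1) and 0.16 (untreated replicate 2). So did the robust, intensity-dependent prior variance (adjusted p = 0.051). Of 7 genes of lipoprotein uptake and lysosomal release 1 rose, 0 fell (0 also at an unadjusted p under 0.05) and 6 did not pass. Lipa, the lysosomal lipase that frees cholesterol from its esters, was at 7.54 and 7.11 untreated and at 8.27 and 8.25 after TGFβ. It rose 1.91-fold (0.93 ± 0.15, adjusted p = 0.012), called without any single array, and acts in the same compartment as Npc1.

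Of 6 other LXR targets and partners 1 rose, 1 fell and 4 did not pass. Smpdl3a, a phosphodiesterase induced by LXR, was at 4.98 and 5.06 untreated and at 5.48 and 5.65 after TGFβ, below the array medians throughout. It rose by 0.55 (adjusted p = 0.015), a call that ended when untreated replicate 1 was dropped (adjusted p = 0.075). Rxra, the partner with which LXR binds DNA, was at 9.46 and 9.33 untreated and at 8.94 and 8.80 after TGFβ. It fell by 0.52 (adjusted p = 0.017), a call that ended when either untreated replicate 1 or TGFβ replicate 2 was dropped (-0.46 both times, adjusted p of 0.087 and 0.056).

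Of 7 sterol transfer proteins 0 rose, 2 fell and 5 did not pass, with 1 higher at an unadjusted p under 0.05. The oxysterol-binding relatives Osbpl2 (-0.52, adjusted p = 0.030) and Osbpl9 (-0.44, adjusted p = 0.018) fell. Dropping replicate 1 of the untreated or the TGFβ group ended the Osbpl2 call (adjusted p of 0.14 and 0.099) and the Osbpl9 call (0.090 and 0.069), and dropping untreated replicate 2 ended the Osbpl9 call (0.074). Of 7 genes that use isoprenoids outside sterol synthesis and of 5 for sterol esterification, oxysterols and ester hydrolysis, 0 were called in limma, with 1 lower at an unadjusted p under 0.05 in the first list and 0 in the second. Their medians were -0.12 and 0.02. In the second list 4 of 5 genes had means under 7 in both groups.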

How the data were processed

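RNA of Py2T cells (100 ng total RNA per array, Ambion WT Expression kit) was hybridised to Affymetrix arrays, per the labels. The deposited log2 values were made by the authors with RMA in the R package oligo, per the submitters' processing notes; its version, the genome build and the summary level are not named in those sources. The array's gene table gives 21789 of 35556 probe sets 1 symbol, 1621 several and 12146 none, and for 999 genes with several probe sets the brightest over the 4 arrays was used. The groups were compared by limma 3.58.1 under R 4.3.3 (lmFit, eBayes, two-sided, 2 residual and 3.77 prior degrees of freedom), with Benjamini-Hochberg adjustment over all 19938 genes and a threshold of 0.05. No filter or further normalization was applied. With 2 arrays a group an exact permutation test cannot go below p = 0.333. The fit was tested on simulated data.

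The 31 genes and the lists were chosen with earlier results of these data known. All 31 are named, and from each further list the called genes, at most 3 in each direction by size. Alternatives were median centring, repeated quantile normalization, cyclic loess, leaving out the dimmest 25% of genes, the mean of a gene's probe sets, a prior variance that follows intensity and is fitted robustly, a block on replicate number, and leaving out each array; without 1 array, the lone array is assumed to vary like the other group. A crossed block was added after the data were seen.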

Additional observations from a re-analysis of the deposited data

How the results depend on the processing

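Of the 29 measured genes, 8 kept their direction and their side of the threshold in all 12 alternatives, 7 of them called (Hmgcs1, Idi1, Lss, Ebp, Dhcr7, Stard4 and Abcg1) and 1 not (Scap). Median centring and the mean of a gene's probe sets changed none of the 29. Leaving out 1 array at a time, 1535 to 2260 genes were called over all genes, 5 to 17 synthesis enzymes, 0 to 3 regulators (with 3 at an unadjusted p under 0.05 where limma called 0), 1 to 2 LXR and efflux genes and 1 of the 2 transport genes, Stard4, each time. Of the uncalled genes 3 turned: over the same 4 omissions Abca1 ran from -0.75 to 0.11 (untreated replicate 1 out), Ggps1 from -0.020 (TGFβ replicate 1 out) to 0.15 and Nr1h3 from -0.050 (TGFβ replicate 2 out) to 0.23.

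The labels number the replicates in both groups, but same-numbered arrays did not deviate together (correlation of deviations over genes -0.21), so the number was not taken as a pairing. With the replicate number as a block 1624 genes were called in limma, with 8 synthesis enzymes, 0 regulators (3 at an unadjusted p under 0.05) and 1 transport gene. The calls lost among the 29 genes were Pmvk, Sc5d, Srebf1, Srebf2, Insig2 and Npc1. The cause of these lost calls was not tested. With the pairing crossed, 3640 genes and 17 synthesis enzymes were called. The crossed pairing was fitted only because the correlation of -0.21 was negative. A block chosen in this way favours a smaller residual spread and more calls, so these counts give no separate support. Nr1h3 and Smpdl3a lay below the array medians, and signal over background was not measured.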
